A study of Rattus norvegicus with 8 samples.

Results

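The negative limb and the output factors of the circadian clock were followed in PC12, a rat line that derives from a pheochromocytoma, a tumour of the adrenal medulla, after forskolin, a plant compound that activates adenylyl cyclase and so raises cyclic AMP. The set holds 10 genes of the 13810 that the arrays name by 1 symbol: the period genes Per1, Per2 and Per3, the cryptochromes Cry1 and Cry2, the basic helix-loop-helix repressors Bhlhe40 and Bhlhe41, the nuclear receptors Nr1d1 and Nr1d2, and Dbp. The 10 genes were chosen with earlier results of these data known, and their probe sets were taken by gene symbol alone. All probe sets with one of these symbols were used, 16 of the 31142 probe sets on both chips, 12 on chip A and 4 on chip B. Each chip was hybridized with RNA of 4 samples, 2 with forskolin and 2 labelled as having no forskolin, which the series title calls an inactive control. The labels give neither dose nor exposure time, nor what the control was. The labels also do not say whether replicates were separate cultures, so the p-values reflect the spread among these RNA samples, which may be only technical.

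The mammalian clock is a transcriptional feedback loop. The activators CLOCK and BMAL1 bind E-box sequences and drive the Per and Cry genes, whose proteins return to the nucleus and hold the activators back. The same activators drive Bhlhe40 and Bhlhe41, whose proteins (also called DEC1 and DEC2) compete for E-boxes, Nr1d1 and Nr1d2, which encode the REV-ERB receptors that repress Bmal1, and Dbp, a factor that acts at D-box sequences of output genes. Cyclic AMP is a classical input to this loop, and Per1 is known as a target of the cyclic AMP responsive factor CREB.

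The authors' processed expression values are on a log2 scale, and each change below is forskolin minus no forskolin on that scale. Array medians were 8.15 to 8.17 on chip A, and on chip B 6.77 to 6.79. Arrays of the same group correlated across tested probe sets at r = 0.998 to 0.999 on chip A, above the 0.992 to 0.993 between groups, whereas on chip B the ranges overlapped (0.986 to 0.992 within and 0.987 to 0.990 between groups). Probe sets under the 30th percentile of mean level on their chip were not tested, which sets a level of 7.02 for chip A and of 6.02 for chip B. The others were fitted with limma, and a change was called at an adjusted p under 0.05 (Benjamini-Hochberg, over everything tested on that chip). Each standard error (SE) and interval combines the probe set's own spread with that of probe sets of like level on the chip. Among 12 genes known to respond to cyclic AMP, 11 were called higher and none lower, where 1.44% of all genes tested through their brightest probe set were called higher. Fos, at 0.060 (limma adjusted p = 0.519), was not called. The list was chosen with earlier results of these data known, so its count is not independent of them. For 3 of the 11 (Nr4a2, Rgs2 and Pde4b) the control mean lay under the filter level, so they were tested through their forskolin arrays. Of 10 chromaffin cell markers on chip A, 8 passed the filter, with Scg2 at the 99.4th percentile, while Dbh and Slc18a1, a synthesis enzyme and a vesicle transporter of catecholamines, lay under it. Their summed linear level was higher with forskolin, 21516 to 21771 against 19384 to 19802 without. Phox2a, a transcription factor of these cells, rose by 0.41 (limma adjusted p = 1.02e-04), and Th, Chga, Chgb and Hand2 had both forskolin values above both controls without a call. Gata3 had both below (-0.12, not called), and the groups of Ddc and Scg2 overlapped. Of all tested probe sets on chip A, 20.4% had the forskolin pair wholly above the controls and 28% wholly below. Of 8 fibroblast markers 5 passed, led by Col3a1 at the 98.0th percentile; their sum was 7820 to 8015 with forskolin and 7698 to 7828 without, so that the ranges overlapped. Of the glial markers on chip A 2 of 4 passed, with sums of 599 to 609 against 567 to 595, which did not overlap. Mbp of this list passed on chip B alone (89.8th percentile), as did Nr5a1 of the adrenal cortex (51.2nd) and Kdr of the endothelium (46.8th). Of the adrenal cortex markers 2 of 7 passed on chip A (696 to 729 against 666 to 701). Of the blood and endothelial markers 2 of 6 passed there (661 to 670 against 662 to 665). Both pairs of sums overlapped. The part of these differences in the changes of the clock genes was not tested. RNA of whole cultures does not tell a change in every cell from a change in some of them.

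On chip A the repressors Bhlhe41, Per1, Bhlhe40 and Cry2 rose, and the REV-ERB genes, Dbp and Per2 were not called. Of 11 tested member probe sets on this chip 5 were called higher and none lower, where 2.03% of all tested probe sets were called higher and 1.26% lower. The Bhlhe40 probe set among the 5 had a control mean under the filter level, so it was tested through its forskolin arrays. As the genes were chosen with earlier results of these data known, these shares are not a test of the set. The median change of the tested members was 0.18, against -0.0082 over all 11106 tested probe sets. At an unadjusted p under 0.05, 6 of the 11 were higher and none lower, against 7.1% and 10.3% of the tested probe sets. The forskolin pair lay wholly above the control pair in 7 of the 11, a pattern that 20.4% of tested probe sets showed, and wholly below it in 1, as in 28% of tested probe sets. The remaining member probe set of chip A, for Per3, was too dim to be tested. On chip B none of the 4 tested member probe sets was called by limma, and 0.15% of all probe sets there were called higher and 0.00935% lower. At an unadjusted p under 0.05, 1 of these 4 was higher, the one for Bhlhe40, and none lower, where 1.64% of the chip was higher and 3.33% lower. The forskolin pair lay wholly above the controls in 2 of the 4 and wholly below in none, where 10.4% and 22.2% of the chip did so. The median change of the members on chip B was 0.022, against -0.026 over the chip.

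**Figure D1:**
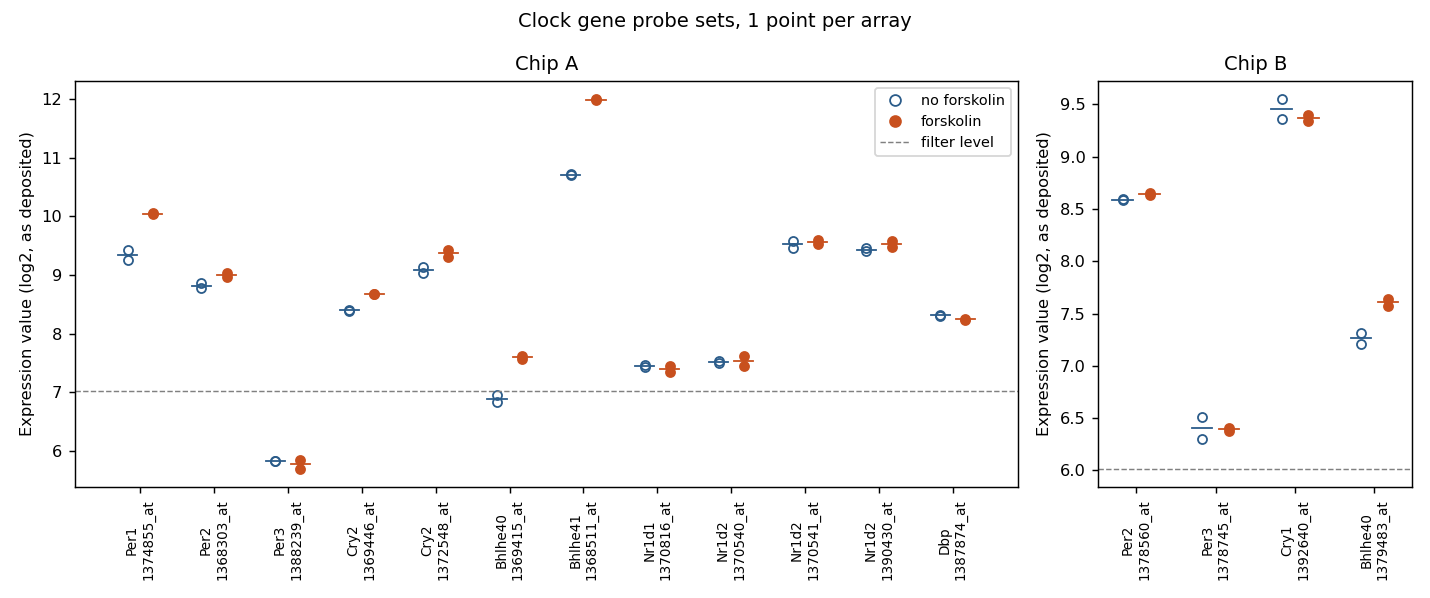
Expression values (log2, as deposited) of the 16 clock gene probe sets on each of the 4 arrays of their chip. Open points are no forskolin arrays, filled points forskolin arrays, short lines the group means and the dashed line the level of the filter; levels of different probe sets are not on a common scale. The forskolin points of Bhlhe41, Per1, Bhlhe40 and both Cry2 probe sets lie above their controls, and Per3 on chip A lies under the filter at 5.70 to 5.84.

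Bhlhe41 had the largest change of the set. Its probe set (1368511_at) read 11.98 and 12.00 in the forskolin arrays and 10.71 and 10.72 in the arrays without forskolin. The pairs lay far apart compared with their spread, with SDs of 0.012 and 0.0030 (n = 2 each). The change was 1.27 ± 0.030 (SE), or 2.42-fold with a 95% interval of 2.30 to 2.53 (limma adjusted p = 9.33e-08). It was the 24th largest rise among the 11106 tested probe sets and the 8th smallest p. The level without forskolin was already well over the filter, and the probe set stood at the 97.0th percentile of the chip.

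Its relative Bhlhe40, which encodes the other DEC repressor, was measured on both chips. On chip A (1369415_at) it read 7.62 and 7.56 with forskolin and 6.94 and 6.84 without. The groups did not overlap, and the change was 0.70 ± 0.055 (SE, n = 2 per group, limma adjusted p = 1.54e-04), or 1.63-fold (95% interval 1.49 to 1.78). The control mean of 6.89 lay under the filter level of 7.02, so this probe set passed the filter through its forskolin arrays. On chip B (1379483_at) Bhlhe40 read 7.64 and 7.57 with forskolin and 7.21 and 7.32 without, again with no overlap. That change was 0.34 ± 0.082 (95% interval 0.15 to 0.54) at an unadjusted limma p of 0.00388, and it was not called (adjusted p = 0.602). It ranked 59th from the largest rise among the 10693 tested probe sets of chip B. The chips were scaled separately, and the difference between the 2 changes was not tested.

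Of the period genes, whose proteins are the core of the repressor complex, Per1 rose. It has 1 probe set (1374855_at), which read 10.04 and 10.05 with forskolin and 9.26 and 9.43 without. The groups did not overlap, and the controls were the more widely spread pair (SD 0.12 against 0.0065). The change was 0.71 ± 0.056 (SE, limma adjusted p = 1.74e-04), or 1.63-fold (95% interval 1.49 to 1.78), the 64th largest rise on chip A. Bhlhe40 on the same chip ranked 65th.

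Per2 read 8.97 and 9.03 with forskolin and 8.78 and 8.86 without on chip A (1368303_at). The groups did not overlap, but the change of 0.18 ± 0.047 (95% interval 0.07 to 0.29) was not called (limma adjusted p = 0.0998). It was called higher with every array centred on its median (limma adjusted p = 0.0427) and under quantile normalization (0.0470). On chip B (1378560_at) Per2 read 8.65 and 8.64 with forskolin and 8.58 and 8.59 without. The groups again did not overlap, with SDs of 0.0081 with forskolin and 0.0057 without. The change of 0.056 ± 0.076 had an interval from -0.12 to 0.24. The interval of Per1 (0.58 to 0.83) lay wholly above both Per2 intervals; the difference between the genes was not tested.

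Per3 lay under the filter on chip A and above it on chip B, there at the 39.2nd percentile. Its chip A probe set (1388239_at) read 5.70 and 5.84 with forskolin and 5.83 and 5.83 without, at the 12.7th percentile of the chip. With no filter its difference of -0.065 had a limma p of 0.298 before adjustment. On chip B (1378745_at) the values were 6.38 and 6.41 with forskolin and 6.30 and 6.51 without, so that the forskolin arrays lay between the controls. The change there was -0.013 ± 0.099 (95% interval -0.25 to 0.22).

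The cryptochromes, the partners of the period proteins in repression, gave a rise in Cry2 and none in Cry1. One Cry2 probe set (1369446_at) read 8.68 and 8.68 with forskolin and 8.39 and 8.41 without, a change of 0.28 ± 0.041 (SE, limma adjusted p = 0.00682), or 1.22-fold (95% interval 1.14 to 1.30). The other (1372548_at) read 9.43 and 9.31 with forskolin and 9.04 and 9.14 without, a change of 0.28 ± 0.056 (adjusted p = 0.0346). Neither pair of groups overlapped, and the probe sets gave 1.22-fold and 1.21-fold. The call of the second was lost in 4 of 10 alternative settings: without forskolin replicate 1 (limma adjusted p = 0.129, change 0.22), without a filter (0.0565), by eBayes without a trend (0.0503) and with the replicate number as a block (0.148). The first kept its call in all 10, with a highest adjusted p of 0.0437. Cry1 (1392640_at, on chip B) read 9.34 and 9.40 with forskolin and 9.36 and 9.55 without. The groups overlapped, and its change was -0.082 ± 0.093 (95% interval -0.30 to 0.14). Cry1 and Cry2 were measured on different chips, whose standard errors had medians of 0.089 on chip B and 0.045 on chip A, and were not compared with each other.

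**Figure D2:**
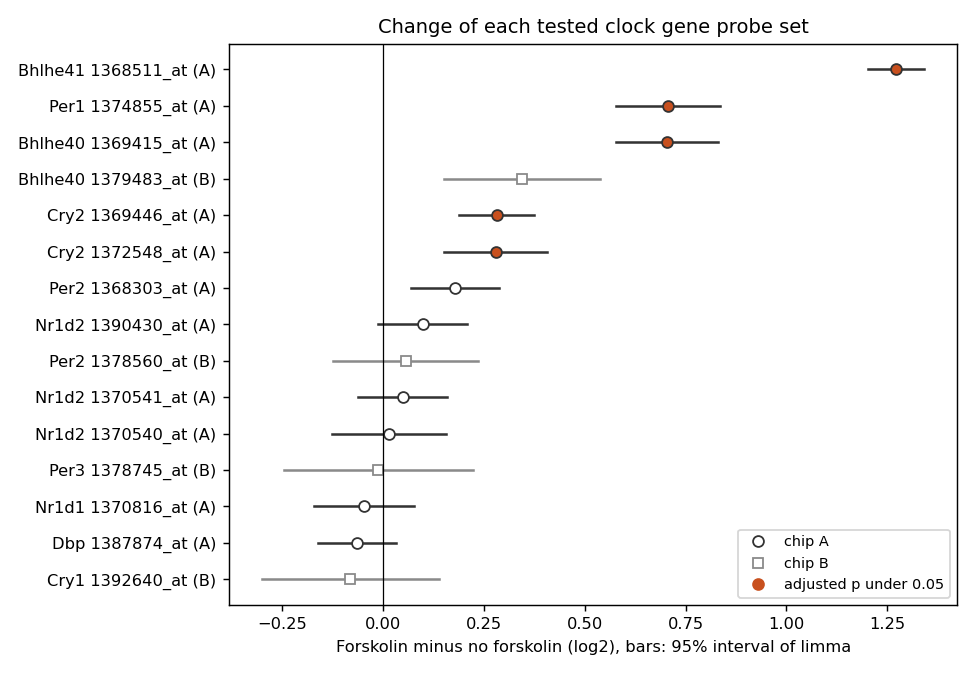
Forskolin minus no forskolin (log2) of the 15 tested clock gene probe sets, with the 95% interval of limma as bars, circles for chip A and squares for chip B. Filled points passed an adjusted p of 0.05. Bhlhe41 stands apart at 1.27, Per1 and Bhlhe40 on chip A follow at 0.71 and 0.70, and the Cry2 probe sets lie at 0.28. The intervals of Nr1d1, Nr1d2, Dbp, Per3, Cry1 and the chip B probe set of Per2 include 0.

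The REV-ERB genes were not called on any probe set. Nr1d1 (1370816_at) read 7.34 and 7.45 with forskolin and 7.43 and 7.46 without, and its change was -0.047 ± 0.054 (95% interval -0.17 to 0.08, limma adjusted p = 0.706). The 3 probe sets of Nr1d2 changed by 0.014 (1370540_at), 0.049 (1370541_at) and 0.098 (1390430_at). In the last, which read 9.47 and 9.58 with forskolin and 9.40 and 9.45 without, the forskolin arrays lay above the controls by less than the gap between the forskolin arrays themselves (limma adjusted p = 0.338). In the other two the groups overlapped. The upper ends of the 3 intervals were 1.11-fold, 1.12-fold and 1.16-fold.

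Dbp, the D-box factor of clock output, was the member whose forskolin arrays both lay below the controls. Its probe set (1387874_at) read 8.24 and 8.25 with forskolin and 8.30 and 8.32 without. The change of -0.065 ± 0.042 (95% interval -0.16 to 0.03) was not called (limma adjusted p = 0.463).

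In order of change on chip A, Bhlhe41 came first, and its interval (1.20 to 1.34) overlapped that of no other member. Per1 and Bhlhe40 followed with nearly identical intervals (0.58 to 0.83 in both). The Cry2 probe sets (0.19 to 0.37 and 0.15 to 0.41) overlapped each other and Per2 (0.07 to 0.29). Nr1d2, Nr1d1 and Dbp came last, with intervals that overlapped each other. Neighbours in this order other than Bhlhe41 and Per1, and Bhlhe40 and Cry2, were thus not separated by their intervals, and no difference between members was tested. Among all tested probe sets of chip A, 0.207% had a larger change than Bhlhe41, 0.576% a larger one than Bhlhe40 and 1.53% a larger one than the lower Cry2 probe set, whereas 79.1% had a larger one than Dbp.

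**Figure D3:**
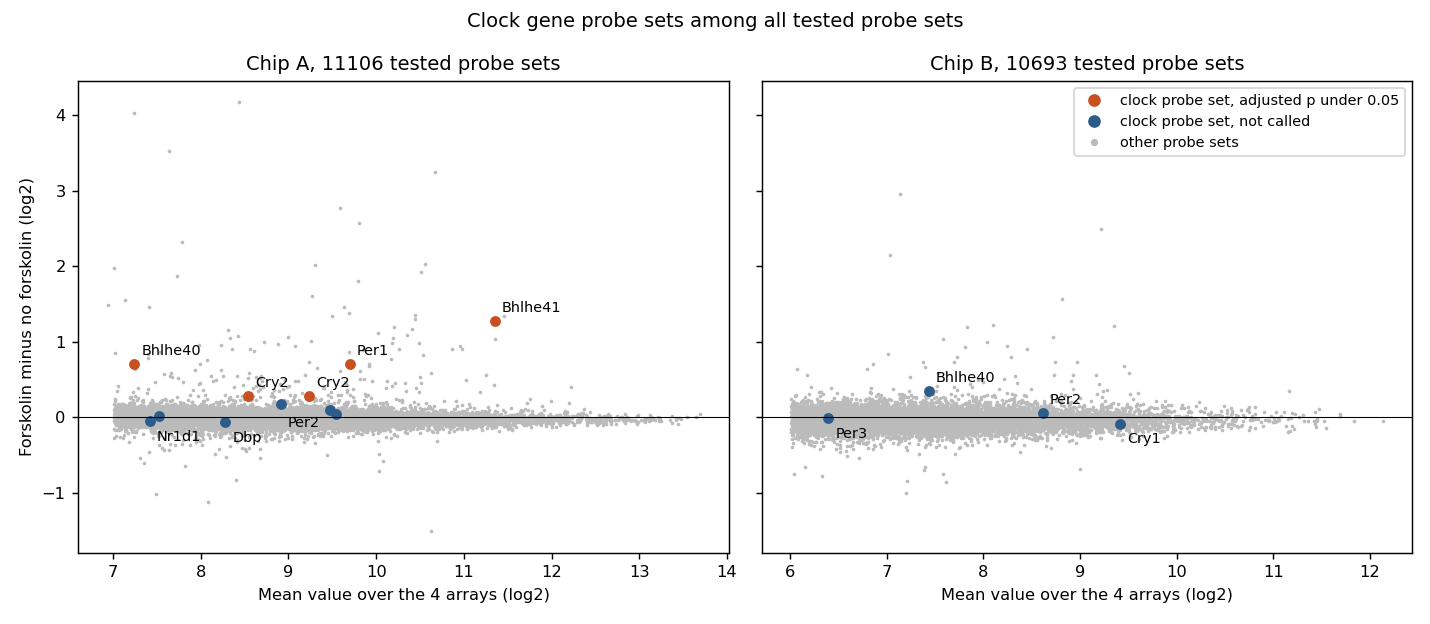
Forskolin minus no forskolin against the mean value over the 4 arrays (both log2) for all tested probe sets, 11106 on chip A (left) and 10693 on chip B (right), in grey. Clock gene probe sets are large points, in orange where the adjusted p was under 0.05 and in blue otherwise; those of Nr1d2 carry no name. The orange points on chip A run from the Cry2 probe sets at 0.28 to Bhlhe41 at 1.27, and the Bhlhe40 point of chip B lies at 0.34.

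Starts of transcription in RefSeq (rat assembly GRCr8) were found for 9 of the 10 genes, all except Cry1, with 2 starts for Nr1d1. The 250 bases before each start were searched on both strands for short sequences known from the clock and from cyclic AMP signalling. The E-box CACGTG was in 5.59% of the 33469 windows of this length in RefSeq and in 3 of the 10 member windows, those of Bhlhe40, Bhlhe41 and the second start of Nr1d1. The noncanonical E-box CACGTT, added to the search after the sequence of Per2 had been seen, was in 4.07% of all windows and in those of Per2, Cry2 and the first start of Nr1d1. The D-box TTATGNAA was in 3.28% of windows and, among the members, in that of Per2. The cyclic AMP response element TGACGTCA was in 1.59% of windows and in none of the members, and its core TGACG, which a full element also holds, was in 18.2% and in that of Per3. The nuclear receptor core AGGTCA was in 14.1% of windows and in that of Nr1d2. The window of Per1 (chr10:54304126-54304375, plus strand) lies inside the annotated gene (chr10:54299002-54313804) and so is not the sequence before its first base. It held none of these letters, which says nothing of the Per1 promoter upstream of the gene. The windows of Per3 and of the second start of Nr1d1 also lie inside their genes, and those of Bhlhe41 and Per2 overlap the 5′ ends of theirs in part. The matches describe these windows only. Shown are the windows of the DEC genes, which rose and share an E-box, and for comparison 2 windows of genes that were not called, Nr1d1 with the same E-box and Per2 with a D-box and the noncanonical E-box. They run 5′ to 3′ on the strand of the gene and end at the base before the start, with matches in capitals. The Bhlhe41 window is chr4:180569356-180569605 (minus strand, match beginning 48 bases before the start), that of Bhlhe40 chr4:143174200-143174449 (plus strand, 220 bases before), that of Nr1d1 chr10:84229455-84229704 (minus strand, 191 bases before) and that of Per2 chr9:99496994-99497243 (minus strand, D-box 192 and E-box 62 bases before).
Bhlhe41: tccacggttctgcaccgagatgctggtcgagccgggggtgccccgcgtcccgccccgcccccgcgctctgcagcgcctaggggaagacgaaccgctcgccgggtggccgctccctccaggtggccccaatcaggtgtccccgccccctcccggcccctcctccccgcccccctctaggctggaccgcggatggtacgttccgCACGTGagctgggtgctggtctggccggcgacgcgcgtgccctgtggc
Bhlhe40: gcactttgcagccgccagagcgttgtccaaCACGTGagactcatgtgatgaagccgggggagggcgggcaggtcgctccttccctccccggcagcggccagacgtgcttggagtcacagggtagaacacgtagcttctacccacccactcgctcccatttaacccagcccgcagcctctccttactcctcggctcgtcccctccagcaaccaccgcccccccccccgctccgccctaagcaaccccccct
Nr1d1: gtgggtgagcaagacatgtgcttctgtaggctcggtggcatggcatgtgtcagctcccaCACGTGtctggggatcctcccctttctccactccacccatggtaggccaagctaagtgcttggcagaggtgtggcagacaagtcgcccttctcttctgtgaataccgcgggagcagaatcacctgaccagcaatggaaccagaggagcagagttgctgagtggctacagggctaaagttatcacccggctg
Per2: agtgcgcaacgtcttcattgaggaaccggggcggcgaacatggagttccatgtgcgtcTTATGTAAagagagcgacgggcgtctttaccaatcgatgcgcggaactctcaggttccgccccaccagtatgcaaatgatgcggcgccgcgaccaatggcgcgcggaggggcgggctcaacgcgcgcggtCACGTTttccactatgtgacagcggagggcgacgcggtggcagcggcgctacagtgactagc

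The other parts of the clock were read from a list of 36 further genes, of which 31 had a probe set and 29 were tested, each through its brightest tested probe set. Of these 3 rose, Nfil3, Id2 and Usp2, and none fell, where 1.44% of all 11007 genes tested this way were called higher and 0.945% lower. The list had a median change of 0.0094, against -0.016 over all tested genes. The activators of the loop were not called: Bmal1, whose protein pairs with CLOCK, changed by 0.052 (95% interval -0.051 to 0.15) and Clock by 0.018 (-0.12 to 0.16). Rora, whose receptor drives Bmal1 from the sites that the REV-ERB proteins occupy, changed by 0.20 on chip B with an interval from -0.066 to 0.47. Npas2, a relative of Clock, lay under the filter.

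The genes that rose in this list act beside the loop. Nfil3 encodes E4BP4, a repressor that binds the D-boxes used by DBP, and read 7.91 and 8.01 with forskolin against 7.43 and 7.31 without. Its change was 0.59 ± 0.058 (SE, n = 2 per group, limma adjusted p = 6.17e-04), or 1.51-fold. Tef and Hlf, the close relatives of Dbp, changed by -0.14 and -0.049 and were not called. All 3 Tef probe sets had both forskolin arrays below both controls, with -0.14 on chip A and -0.14 and -0.27 on chip B. The smallest of their limma adjusted p-values was 0.195. A forskolin pair wholly below the controls was common, at 28% of everything tested for chip A and 22.2% for chip B. Of the 29 tested genes of this list, 5 had it in their brightest probe set, and 7 had the pair wholly above.

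Id2, whose protein traps basic helix-loop-helix factors off DNA, read 9.23 and 9.20 with forskolin and 8.77 and 8.83 without, which is 1.33-fold (limma adjusted p = 7.90e-04). Another Id2 probe set changed by 0.36 (adjusted p = 0.0791) without a call. Usp2, which encodes a deubiquitinase that acts on clock proteins, read 8.77 and 8.80 against 8.36 and 8.44 and rose 1.31-fold (adjusted p = 0.00187), with 1.55-fold on its other probe set. The casein kinases Csnk1d and Csnk1e, which phosphorylate period proteins, changed by 0.0045 and 0.065 on their brightest probe sets without a call. Of the probe sets that were not the brightest of their gene, 1 of Ddx5, a helicase, was called lower (-0.19, adjusted p = 0.0405), and the brightest one of Ddx5 measured -0.012. Ddx5 was named after its values had been seen.

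**Figure D4:**
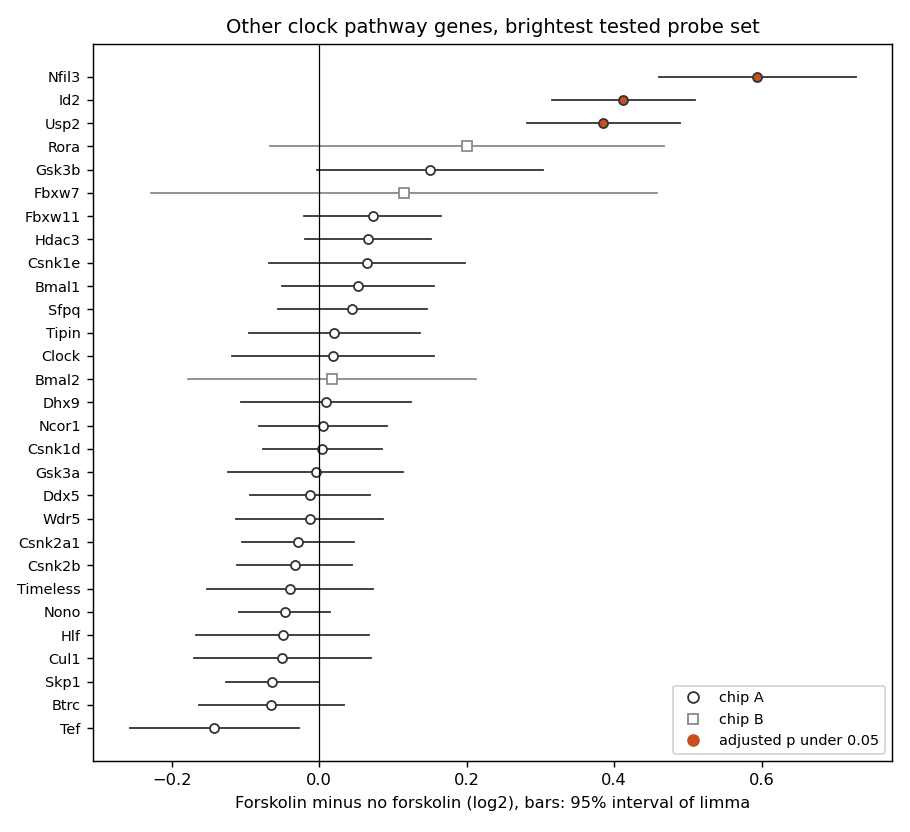
Forskolin minus no forskolin (log2) of the 29 tested genes of the wider clock pathway, each through its brightest tested probe set, with the 95% interval of limma as bars, circles for chip A and squares for chip B. Chip B was used where no probe set of the gene was tested on chip A. Filled points passed an adjusted p of 0.05. Nfil3, Id2 and Usp2 lie at 0.59, 0.41 and 0.38, and the activators Clock and Bmal1 at 0.018 and 0.052.

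For each member called on chip A, the 3 nearest of 281 other called genes were taken by the Euclidean distance between their 4 log2 values, each measured from its own control mean. Midn lay nearest to Bhlhe41 (distance 0.051), followed by Rhob (0.11) and Ddit4 (0.11). Zrsr2-ps1 (0.095), Ppp1r15a (0.12) and Irs2 (0.13) lay nearest to Per1. Bhlhe40 was nearest to Zfand2a (0.041), then Gch1 (0.089) and Ppp1r15a (0.12). P2ry12 (0.039), Kpna1 (0.041) and Ntsr2 (0.042) lay nearest to Cry2. With 4 arrays these distances reflect mainly the size of the change.

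Bhlhe41 and Per1 were called in all 10 alternative settings and the chip A probe set of Bhlhe40 in all 9 that included it. The change of Bhlhe41 ranged over 1.26 to 1.29, that of Per1 over 0.62 to 0.79 and that of Bhlhe40 over 0.65 to 0.76. Bhlhe40 on chip B stayed between 0.29 and 0.40 and was not called in any of 10. Cry1, Nr1d1, Per3 on chip B and 2 of the Nr1d2 probe sets changed sign in at least 1 setting.

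**Figure D5:**
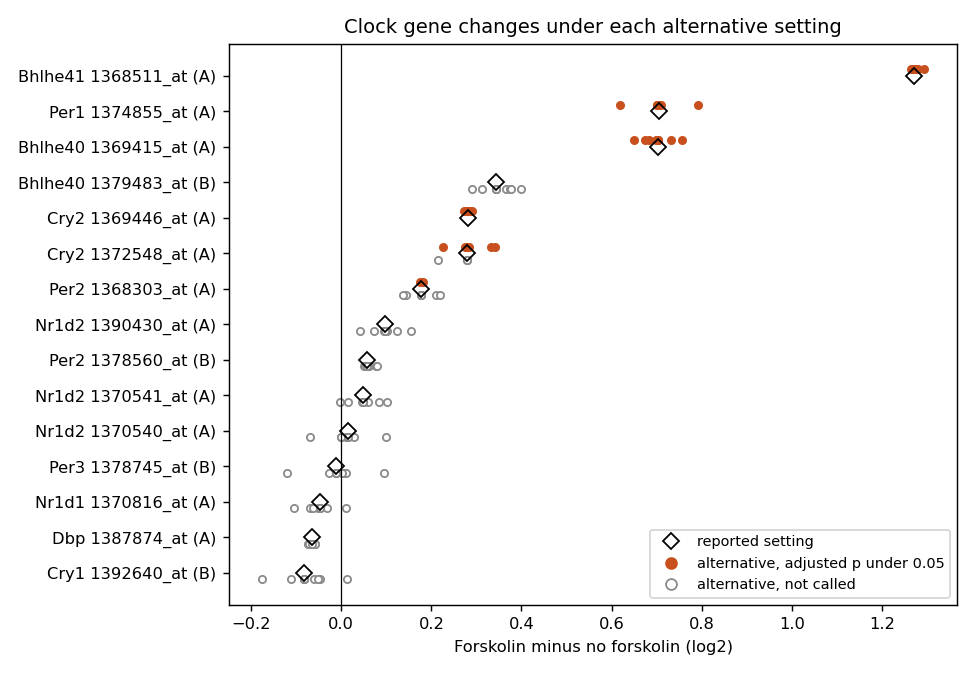
Forskolin minus no forskolin (log2) of each tested clock gene probe set as reported (diamond) and under each alternative setting (points, drawn just above the line where the adjusted p was under 0.05 and just below it otherwise). The points of Bhlhe41 and Per1 are all filled, the Cry2 probe set 1372548_at has filled and open points, and the range of Per1 is 0.62 to 0.79.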

How the data were processed

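Total RNA of PC12 cells was measured on 8 arrays, 4 each of chips A and B. The deposited tables hold the authors' processed values; their background correction, summary and scaling are not stated in the sources used here. Base 2 was inferred from the deposited log2 values: read as natural logarithms, 3063 values of chip A and 115 of chip B would lie beyond a 16-bit scanner. Array medians lay within 0.1 of each other on each chip, so the authors' scaling was kept. No detection calls were used, so distance from background is unknown. The number of arrays limits precision.

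The chips were tested separately, forskolin against no forskolin, in limma 3.58.1 (lmFit, eBayes with an intensity trend, two-sided; R 4.3.3), checked on simulated data. Probe sets under the 30th percentile of mean linear level were left out of the test, and their values are given. With 2 arrays against 2, an exact permutation test cannot go below p = 0.333. Symbols came from GEO's annotation of the chips and were matched by gene number to RefSeq (12748 probe sets on chip A, 7524 on chip B). Alternatives were median centring, quantile normalization, no filter, a 50th percentile filter, eBayes without a trend, leaving out each array and the replicate number as a block. All members, and the genes of the pathway list that were called or are loop activators, are named. Tef, Hlf, Csnk1d, Csnk1e and Ddx5 are named outside this rule. Members and lists were chosen with earlier results of these data known.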

Additional observations from a re-analysis of the deposited data

How the results depend on the processing

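The count of member probe sets called higher on chip A was 4 to 6 in all alternatives against 5 as reported, and no member was called lower on either chip or higher on chip B in any of them. The pathway list gave 2 or 3 rises and no fall throughout. Chip-wide counts moved more. On chip A, 140 probe sets were called lower as reported and 277 with median centring. Leaving out 1 array gave 83 (without forskolin replicate 1) to 192 (without no forskolin replicate 1), with 85 without forskolin replicate 2. On chip B, quantile normalization gave 27 higher and 3 lower, against 16 and 1. Leaving out 1 array of chip B gave 10 (without forskolin replicate 2) to 41 higher (without no forskolin replicate 2), with 37 without no forskolin replicate 1, and 0 (without forskolin replicate 1) to 57 lower (without no forskolin replicate 1), with 5 without no forskolin replicate 2. The cause was not tested. In those fits the lone array of a group is assumed to vary like the other group.

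The labels number replicates 1 and 2 in both groups but do not say that a number marks a shared culture or day. Deviations of arrays with the same number correlated at 0.0034 on chip A and 0.20 on chip B across probe sets. With the replicate number as a block, chip A had 159 probe sets called higher and 46 lower, chip B 15 and 2, and 4 member probe sets were called higher on chip A.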
